A study of Mus musculus with 13 samples.

Results

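The mouse collagen genes were taken from a table of expression in 13 embryos of embryonic day 9.5. All genes whose symbol reads Col, a number, a and a number were taken with no limit on expression, which gave 43 of the 23217 genes in the table. They were sorted by the protein they encode into 11 fibrillar, 8 basement membrane and 24 other collagen genes. Of the 43 genes, 28 had a mean of at least 1 FPKM over the 13 embryos (fragments per kilobase of transcript, scaled by the mapped fragments of the library) and entered the test of all 12755 genes that passed this limit: 9 fibrillar, 6 basement membrane and 13 other. Because FPKM is divided by transcript length, levels can be set side by side between genes.

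The embryos were on the C57BL/6J background, and RNA came from embryo tissue with no dissected part named. The labels give 3 embryos as xHet and 10 as xHomo and state no allele, treatment, litter, batch or sex. By its title the series is about the part of Tet1, an oxidase acting on methylated cytosine, in the removal of parental imprints. As far as the study is known, the names refer to the Tet1 genotype of the fathers. The embryos' own Tet1 alleles are not in the labels, and Tet1 itself stood between 1.93 and 2.61 FPKM in the xHet embryos and between 1.11 and 2.87 FPKM in the xHomo embryos. With no litter in the labels, all p-values measure only the spread between these samples, and in RNA of bulk embryo tissue fewer cells of a type and less RNA per cell cannot be told apart.

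Collagens are secreted or membrane-bound proteins whose chains wind into a helix with a glycine-rich repeat, and which are hydroxylated, folded and packed in the endoplasmic reticulum before export. Fibrillar collagens build the fibrils of connective tissue, cartilage and the notochord sheath. Basement membrane collagens form the sheets under epithelia and around vessels and are among the earliest matrix proteins of the mammalian embryo. The remaining collagens decorate fibrils, form beaded filaments or short-chain networks, or span the cell membrane.

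Many collagen chains work only with a partner chain, and some partner genes lie next to each other, transcribed in opposite directions. Col4a1 and Col4a2, the main type IV chains, are such a pair on chromosome 8. In the deposited table (mm9 build, positions counted from 1) Col4a1 lay at chr8:11198423-11312826 and Col4a2 at chr8:11312829-11449287, with 2 bases between them. In RefSeq on the GRCm38.p6 build the 5′ ends of the transcripts overlapped by 22 bases (chr8:11312805-11312826). These bases are shown, in capitals and on the Col4a2 strand, because their levels are compared below.
Col4a1 and Col4a2 shared 5′ ends: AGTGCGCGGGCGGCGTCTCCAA

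Col4a6 and Col4a5 lie in the same arrangement on the X chromosome with 1342 bases between their starts. The 250 bases before the start of transcription, 5′ to 3′ on the strand of each gene, are shown for this pair, for Col1a2, whose level followed that of Col1a1, and for Col15a1, the collagen gene with the smallest p in the group comparison. The windows are from RefSeq on GRCm38.p6: chrX:141475169-141475418 (plus strand) for Col4a5, chrX:141474077-141474326 (minus strand) for Col4a6, chr6:4505368-4505617 (plus strand) for Col1a2 and chr4:47207762-47208011 (plus strand) for Col15a1. Capitals mark matches to 3 promoter motifs, searched on both strands with overlapping matches kept. The CCAAT box was searched by the letters of its name. The GC box was searched as GGGCGG. The letters of the TATA box were TATAAA.
Col4a5: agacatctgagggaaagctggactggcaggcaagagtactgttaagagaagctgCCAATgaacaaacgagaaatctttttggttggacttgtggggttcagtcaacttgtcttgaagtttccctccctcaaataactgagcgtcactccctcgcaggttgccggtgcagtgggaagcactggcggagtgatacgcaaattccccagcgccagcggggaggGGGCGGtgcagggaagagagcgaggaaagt
Col4a6: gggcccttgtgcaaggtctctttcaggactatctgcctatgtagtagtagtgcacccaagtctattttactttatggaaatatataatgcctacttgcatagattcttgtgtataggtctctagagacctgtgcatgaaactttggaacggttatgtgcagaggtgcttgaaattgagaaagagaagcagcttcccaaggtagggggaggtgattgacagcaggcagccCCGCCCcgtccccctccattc
Col1a2: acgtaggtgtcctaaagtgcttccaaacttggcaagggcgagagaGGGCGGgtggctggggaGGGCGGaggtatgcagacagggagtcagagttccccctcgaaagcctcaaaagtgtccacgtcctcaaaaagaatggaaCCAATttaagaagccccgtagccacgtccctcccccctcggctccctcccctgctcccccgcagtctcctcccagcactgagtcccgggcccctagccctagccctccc
Col15a1: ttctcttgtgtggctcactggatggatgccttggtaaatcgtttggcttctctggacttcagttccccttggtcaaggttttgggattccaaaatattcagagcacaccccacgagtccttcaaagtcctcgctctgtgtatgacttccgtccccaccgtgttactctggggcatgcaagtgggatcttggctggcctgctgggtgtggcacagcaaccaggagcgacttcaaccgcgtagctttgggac

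In Col1a2 the CCAAT letters began 109 bases before the start and GC box letters began 205 and 188 bases before it. Col4a5 held the CCAAT letters at 196 and GC box letters at 30 bases before the start, Col4a6 held GC box letters on the opposite strand at 21 bases, and Col15a1 held none of the 3 motifs. RefSeq windows matched 35 of the 43 collagen genes, in 38 windows. The CCAAT letters were in 13 of 38 windows, the GC box letters in 22 and the TATA box letters in 5, where 33.8%, 32.7% and 12.4% of all 32851 windows of this length held them. A match is a description of letters, not of a bound site.

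The libraries were alike in summed FPKM, from 500126 to 662936, and their read depth is unknown because the table holds no counts. xHomo embryo 3 had the lowest sum and stood apart over the whole table: it was the lowest of 13 embryos for 51.1% of all tested genes. Xist, which coats the silenced X chromosome, was between 0.05 and 0.10 FPKM in the 3 xHet embryos and in 5 xHomo embryos, at 30.5 FPKM in xHomo embryo 3 and between 112 and 159 FPKM in xHomo embryos 2, 7, 9 and 10. The groups were therefore not balanced for Xist. Markers of blood, endothelium and mesenchyme were present in all libraries. Of 8 markers of decidua and placenta, Tpbpa and Psg21 were listed at 0 in all 13, while 3 others passed the limit of 1 FPKM. The 8 together summed to 10.8 to 15.0 FPKM in xHet embryos. Their sum was 10.26 to 18.15 FPKM in the xHomo embryos other than embryo 3, and 7.03 FPKM in xHomo embryo 3. Because of its place in the table, results that rest on xHomo embryo 3 are given with and without it.

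Collagen levels spanned a wide range. A mean of at least 50 FPKM was reached by 6 genes, 5 stood between 10 and 50, 17 between 1 and 10, 7 between 0.1 and 1, and 8 below 0.1 FPKM. The 6 highest by mean over 13 embryos were Col3a1 at 122, Col18a1 at 109, Col2a1 at 94.9, Col1a2 at 85.5, Col1a1 at 80.8 and Col4a1 at 67.6 FPKM. Over the 12 embryos other than xHomo embryo 3, the ranges of neighbours in this order overlapped in each case. All 43 genes together summed to 760 ± 59.3 FPKM (SD, n = 3) in xHet embryos and to 717 ± 172 FPKM (SD, n = 10) in xHomo embryos, or 768 ± 66.5 FPKM (SD, n = 9) without embryo 3.

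**Figure D1:**
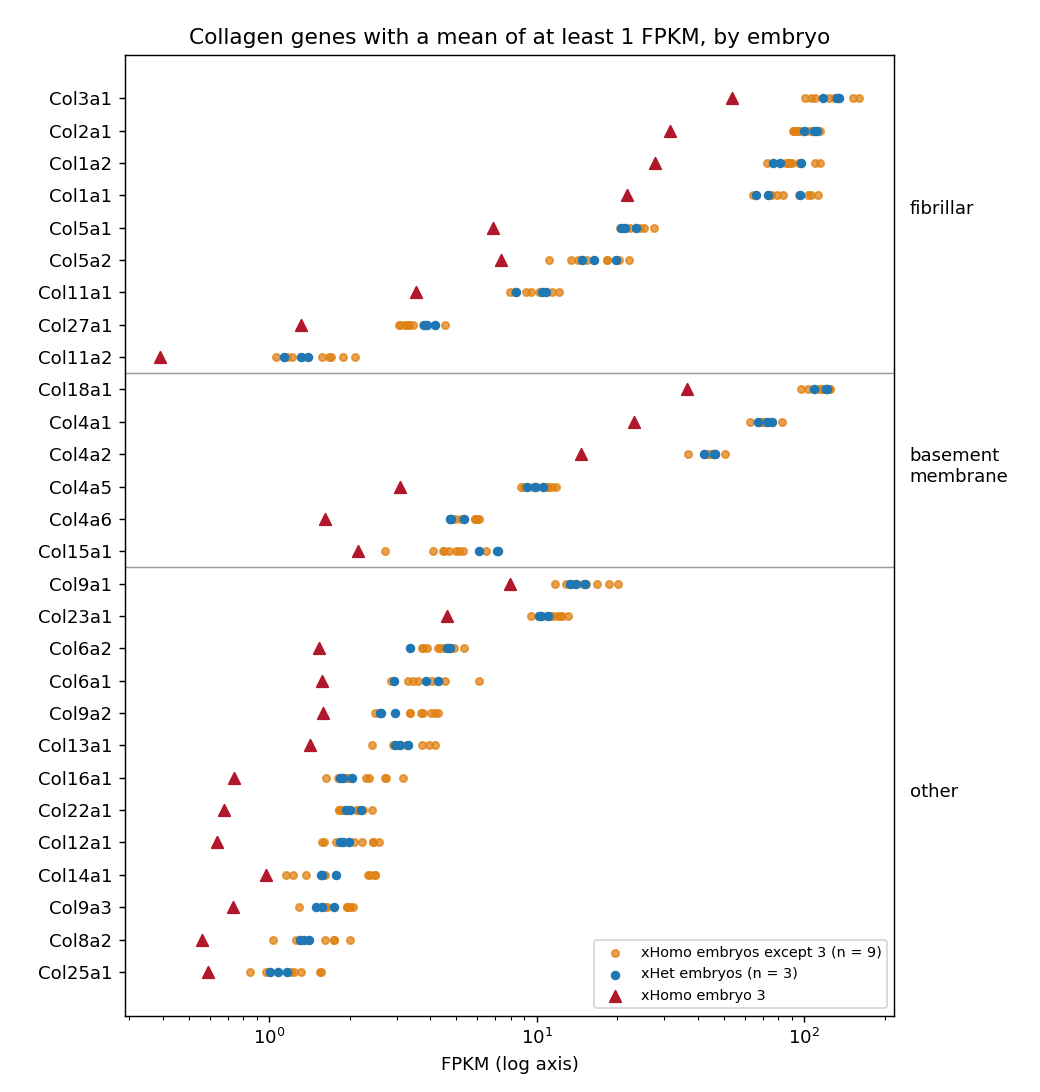
FPKM on a log axis for the 28 collagen genes with a mean of at least 1 FPKM, ordered by class and mean, with each of the 13 embryos as a point. xHomo embryo 3 (red triangles) lies below all other embryos in each of the 28 genes, while the 3 xHet embryos (blue) lie among or beside the other 9 xHomo embryos (orange).

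Among the fibrillar genes, Col3a1, which encodes the chain of type III collagen of vessels and loose connective tissue (chr1:45368383-45406551), read 133, 117 and 135 FPKM in the xHet embryos in order of number. In the 10 xHomo embryos it ran from 53.7 in embryo 3, through a median of 127, to 161 in embryo 4. Col2a1, the type II collagen of notochord and cartilage (chr15:97806033-97835155), stood at 112, 100.2 and 108 FPKM in the xHet embryos and between 31.5 in xHomo embryo 3 and 114 in xHomo embryo 4, with a median of 94.5. The 9 other xHomo embryos lay between 101 and 161 FPKM for Col3a1 and between 90.5 and 114 FPKM for Col2a1, so embryo 3 lay far below them in both genes.

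The chains of type I collagen, the main fibril of mesenchyme and later of bone and skin, varied more between embryos. Col1a1 (chr11:94797584-94813170) was listed at 73.4, 65.8 and 96.6 FPKM in xHet embryos and from 21.7 in xHomo embryo 3, through a median of 81.1, to 112 in xHomo embryo 10. Col1a2 (chr6:4455697-4491543) was listed at 81.0, 76.6 and 96.9 FPKM in xHet embryos and from 27.6 in xHomo embryo 3, through a median of 87.6, to 114 in xHomo embryo 1. Without embryo 3 the SD of log2(FPKM + 1) among xHomo embryos was 0.27 for Col1a1 and 0.20 for Col1a2, against 0.11 for Col2a1. These values cover the spread between embryos and do not separate it from measurement error.

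Type V collagen, which takes part in starting fibrils, was of middle level. Col5a1 stood at 21.4, 20.6 and 23.4 FPKM in xHet embryos and from 6.88 in xHomo embryo 3 through 21.4 to 27.3 in xHomo embryo 4. Col5a2 stood at 16.4, 14.7 and 19.9 FPKM in xHet embryos and from 7.37 in xHomo embryo 3 through 15.1 to 22.2 in xHomo embryo 2. Of the type XI chains, which occur with type II collagen in cartilage, Col11a1 was the higher. It was listed at 10.8, 8.33 and 10.4 FPKM in xHet embryos and from 3.54 in xHomo embryo 3 through a median of 8.73 to 12.2 in xHomo embryo 4.

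The remaining fibrillar genes were low. Col27a1, a fibrillar collagen of cartilage, stood at 4.16, 3.80 and 3.90 FPKM in xHet embryos and from 1.32 through 3.28 to 4.56 in xHomo embryos, lowest in embryo 3 and highest in embryo 4. Col11a2 stood at 1.31, 1.14 and 1.40 FPKM in xHet embryos and from 0.39 in xHomo embryo 3 through 1.45 to 2.09 in xHomo embryo 8. Col24a1 and Col5a3, with means of 0.365 and 0.325 FPKM, were below the limit of the test. The 4 highest fibrillar genes made up 88.1% of the summed fibrillar FPKM.

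Of the basement membrane genes, Col18a1 was the highest (chr10:76514924-76629275). It encodes a collagen that carries heparan sulfate and releases endostatin from its C terminus. It stood at 121, 109 and 120.5 FPKM in the xHet embryos and from 36.6 in xHomo embryo 3, through a median of 117, to 125 in xHomo embryo 9. Its coefficient of variation among the 9 other xHomo embryos was 8.35%.

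Col4a1 was listed at 72.2, 67.1 and 75.5 FPKM in the xHet embryos and from 23.0 in xHomo embryo 3, through 69.5, to 82.6 in xHomo embryo 4. Col4a2 was listed at 46.0, 42.2 and 46.3 FPKM in the xHet embryos and from 14.6 in xHomo embryo 3, through 44.1, to 50.5 in xHomo embryo 4. Both genes had the same lowest and the same highest embryo. The chains Col4a5 and Col4a6 occur together in the basement membrane of smooth muscle and some epithelia. Col4a5 (chrX:137909962-138123778) stood at 9.89, 9.18 and 10.5 FPKM in the xHet embryos and from 3.07 in xHomo embryo 3 to 11.8 in xHomo embryo 4. Col4a6 (chrX:137599946-137908619) stood at 5.34, 4.79 and 4.75 FPKM in the xHet embryos and from 1.62 in xHomo embryo 3 to 6.06 in xHomo embryo 2.

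Of the type IV chains of the mature kidney glomerulus, Col4a3 and Col4a4 were close to 0. Col4a3 had a highest value of 0.04 FPKM and was listed at 0 in 6 embryos, and Col4a4 had a highest value of 0.05 FPKM and was listed at 0 in 2. Col15a1, a collagen of the zone around vessels and muscle that is related to Col18a1, had a mean of 4.99 FPKM and is described with the group comparison.

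Among the other collagen genes, Col9a1, a chain of the type IX collagen that sits on type II fibrils, was the highest. It stood at 15.2, 13.4 and 14.1 FPKM in xHet embryos and from 7.97 in xHomo embryo 3, through 15.0, to 20.1 in xHomo embryo 5. Col23a1, a transmembrane collagen, stood at 11.0, 10.3 and 10.2 FPKM in xHet embryos and from 4.60 in xHomo embryo 3, through 11.4, to 13.1 in xHomo embryo 4. The 4 highest genes of this class held 61.8% of its summed FPKM, so it was the least concentrated class.

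The type VI chains, which assemble into beaded filaments around cells, came next. Col6a2 was listed at 4.72, 3.37 and 4.61 FPKM in xHet embryos and from 1.53 in xHomo embryo 3 through 4.32 to 5.35 in xHomo embryo 4. Col6a1 was listed at 4.26, 2.93 and 3.84 FPKM in xHet embryos and from 1.58 in xHomo embryo 3 through 3.73 to 6.11 in xHomo embryo 9. Col6a3, the long chain of the same filament, had a mean of 0.787 FPKM. Col6a4, Col6a5 and Col6a6 were near 0, with highest values of 0.07, 0.02 and 0.02 FPKM.

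The fibril-associated genes Col9a2, Col16a1, Col22a1, Col12a1, Col14a1 and Col9a3 had means between 1.66 and 3.19 FPKM. Col9a2, a second chain of type IX collagen, stood at 2.60, 2.61 and 2.96 FPKM in xHet embryos and from 1.59 in xHomo embryo 3 through 3.53 to 4.26 in xHomo embryo 9. Of the xHomo embryos, 7 lay above all xHet embryos for Col9a2 and 3 lay below all of them. Of the other transmembrane genes, Col13a1 averaged 3.14 FPKM, Col25a1 1.13 FPKM and Col17a1, a hemidesmosome component of skin, 0.121 FPKM. Col7a1, which forms the anchoring fibrils of skin, averaged 0.703 FPKM. Col10a1, a marker of hypertrophic cartilage, averaged 0.0231 FPKM and was listed at 0 in 5 embryos. Col28a1 was listed at 0 in the 3 xHet embryos and at no more than 0.07 FPKM in any xHomo embryo.

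The first comparison asked whether xHomo and xHet embryos differed in collagen expression. No collagen gene passed: 0 of 28 had an adjusted p under 0.05 in limma fitted on log2(FPKM + 1) over all 12755 genes, of which 3, or 0.0235%, passed. At an unadjusted p under 0.05, 1 of 28 collagen genes was lower in xHomo embryos, where 1.72% of all genes were, and 0 were higher, where 7.63% of all genes were. An exact permutation test per gene with the same adjustment gave 0 calls over all genes. With 3 against 10 embryos its smallest possible p was 0.0035. After adjustment over 12755 genes a call was thus hardly possible, and these 0 calls say nothing on the collagen genes. The groups overlapped in all 28 collagen genes; of all genes, 0.580% had all xHomo below all xHet embryos and 1.66% the reverse. The median log2 change of the 28 genes was -0.05, with 9 above and 19 below 0, beside a median of 0.05 over all tested genes. Without xHomo embryo 3 the medians were 0.07 for the collagen genes, with 18 above and 10 below 0, and 0.08 for all genes, and again 0 collagen genes passed.

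The gene with an unadjusted p under 0.05 was Col15a1 (chr4:47220884-47326037). Its values in the xHet embryos, by number, were 6.10, 7.10 and 7.14 FPKM. In xHomo embryos 1 to 5 it was listed at 5.32, 4.71, 2.15, 6.45 and 4.99 FPKM, and in xHomo embryos 6 to 10 at 4.47, 5.11, 4.51, 2.70 and 4.10 FPKM. All but xHomo embryo 4 lay below the lowest xHet embryo, so 9 of 10 did, and embryos 3 and 9 were the lowest of all. The means were 6.78 ± 0.589 FPKM (SD, n = 3) and 4.45 ± 1.25 FPKM (SD, n = 10). The log2 change was -0.55 (SE 0.21), with an unadjusted limma p of 0.0183, an adjusted limma p of 0.498 and a two-sided exact permutation p of 0.0315, where 3 against 10 embryos allow 0.0035 at the smallest. Without xHomo embryo 3 the change was -0.47, with an unadjusted limma p of 0.0101 and an adjusted p of 0.253.

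Col15a1 was therefore not called. With the level of Xist as a covariate its limma change was -0.38 (adjusted p = 0.591). The 6 endothelial markers Cdh5, Pecam1, Kdr, Tek, Flt1 and Cldn5 were all lower on average in xHomo embryos, with a median log2 change of -0.28 (-0.17 without embryo 3), and 0 of 6 passed limma or had an unadjusted p under 0.05. Their summed level was 129 to 133 FPKM in xHet embryos, 99.6 to 131 FPKM in the 9 other xHomo embryos and 47.0 FPKM in embryo 3. Their part in the difference of Col15a1 was not tested. Col18a1, the relative of Col15a1, differed by -0.19 on the log2 scale (SE 0.28, limma adjusted p = 0.853), and by -0.03 without embryo 3 (limma adjusted p = 0.900).

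**Figure D2:**
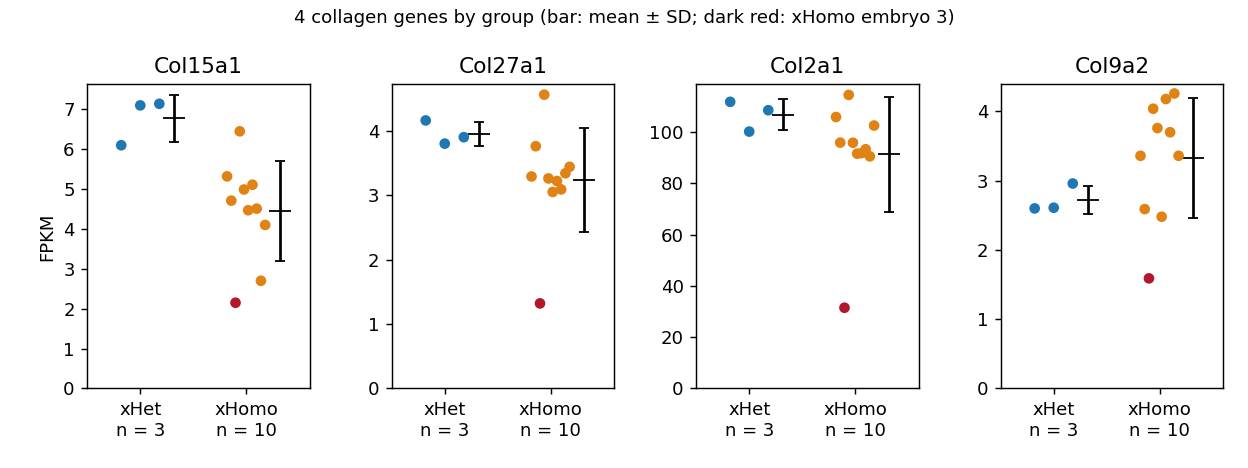
FPKM of Col15a1, Col27a1, Col2a1 and Col9a2 by group, with each embryo as a point, xHomo embryo 3 in dark red, and the mean ± SD as a bar (n = 3 xHet and n = 10 xHomo). The groups overlap in all 4 genes, and for Col15a1 9 of the 10 xHomo embryos lie below the 3 xHet embryos.

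The next genes by p were no nearer to a call. For Col27a1, 9 of 10 xHomo embryos lay below the lowest and embryo 4 above the highest xHet value, and its means were 3.95 ± 0.186 FPKM (n = 3) and 3.23 ± 0.804 FPKM (n = 10), with limma adjusted p = 0.670. Col2a1 lay below all xHet embryos in 7 of 10 xHomo embryos, with means of 107 ± 5.98 and 91.3 ± 22.4 FPKM (limma adjusted p = 0.761). Without embryo 3 the log2 changes of Col2a1 and Col27a1 were -0.13 and -0.16 (limma adjusted p = 0.452 and 0.411). Col9a2 had the largest change above 0, at 2.72 ± 0.205 and 3.33 ± 0.864 FPKM, with 0.19 on the log2 scale (SE 0.18, limma adjusted p = 0.762), and 0.27 without embryo 3 (limma adjusted p = 0.345). Col11a1, Col4a2, Col22a1 and Col16a1, next in their classes, had log2 changes between -0.18 and 0.07 and adjusted limma p-values from 0.830 to 0.922. Without embryo 3 these changes were -0.06, -0.02, -0.01 and 0.16 in that order, with adjusted limma p-values from 0.563 to 0.965.

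Single embryos stood out more than the groups. In xHomo embryo 3, 16 of 28 collagen genes lay 1 unit or more below the mean of the xHet embryos on the log2(FPKM + 1) scale and none lay that far above it, where 9.71% of all tested genes were lower by that much. In this embryo 28 of 28 collagen genes were the lowest of the 13 embryos, beside the 51.1% of all genes given above. The median difference of the 28 genes was -1.07, against -0.27 over all genes. Rescaling each library to the same sum gave -1.04 against -0.17 with 14 genes past 1 unit, and median-of-ratios scaling, which sets the median gene of each library level, gave -0.81 against 0.00 with 9 genes past 1 unit.

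**Figure D3:**
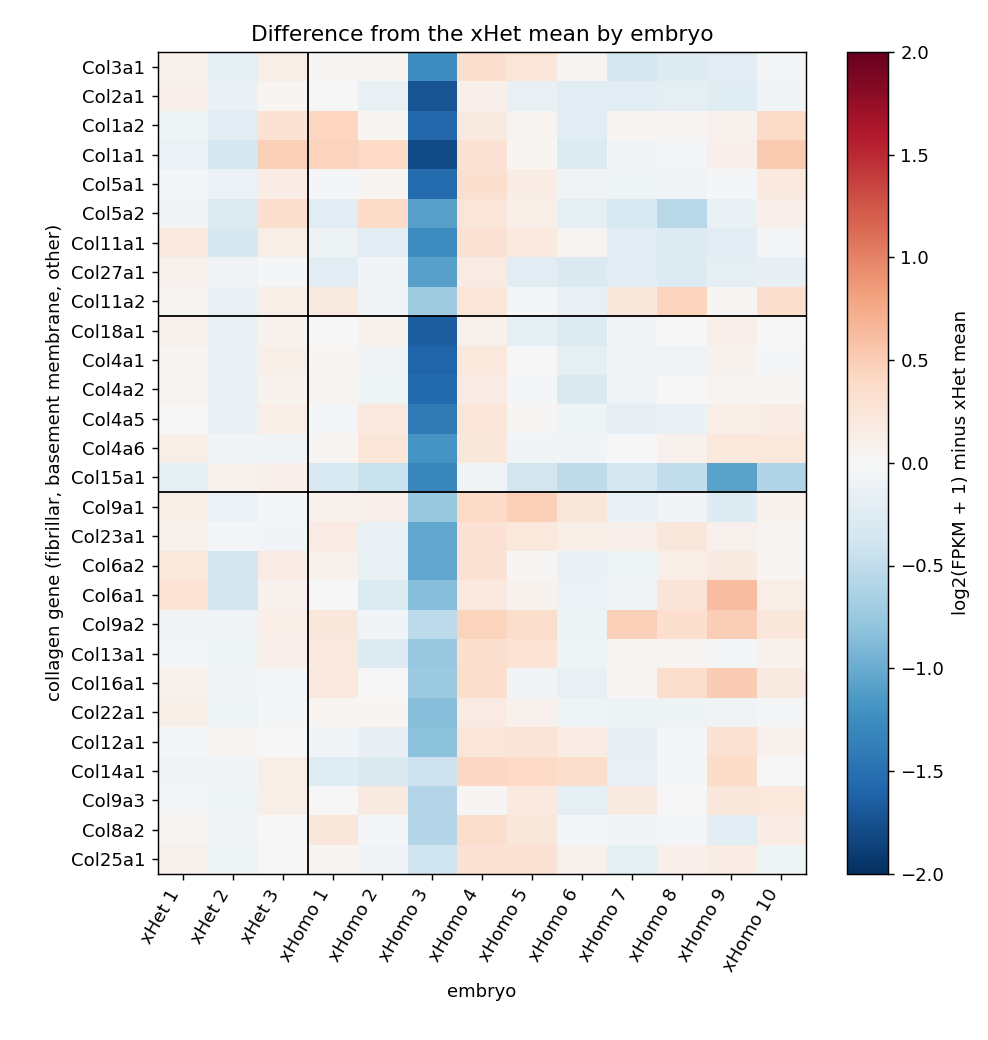
Difference of log2(FPKM + 1) from the mean of the xHet embryos for 28 collagen genes (grouped as fibrillar, basement membrane and other) and 13 embryos, with blue for lower and red for higher. The column of xHomo embryo 3 is blue in all 28 genes, down to -1.79 for Col1a1, and Col15a1 in xHomo embryo 9 is the only other cell at or below -1.

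Embryo 3 lay further below the xHet mean in the fibrillar and basement membrane classes than in the other class. This difference was not tested, and transcript length, taken up below, was not matched between the classes. Fibrillar genes summed to 453 ± 43.7 FPKM in xHet embryos (SD, n = 3), to between 402 and 533 FPKM in the 9 other xHomo embryos, and to 154 FPKM in embryo 3, which was 34.0% of the xHet mean. Basement membrane genes summed to 255 ± 13.6 FPKM, to between 214 and 281 FPKM, and to 81.0 FPKM, or 31.8%. Other collagen genes summed to 52.3 ± 3.35 FPKM, to between 49.9 and 67.7 FPKM, and to 24.6 FPKM, or 47.1%. The fibrillar share of all collagen FPKM was between 56.6% and 62.2% in all 13 embryos, and 59.3% in embryo 3. The basement membrane share was between 30.7% and 35.6%, and 31.2% in embryo 3. Because these classes hold most of the sum and were lower to a like degree, their shares say little on the other class.

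Counted by gene, 8 of 9 fibrillar, 6 of 6 basement membrane and 2 of 13 other collagen genes were at least 1 log2 unit lower in embryo 3. The exception among the fibrillar genes was Col11a2, whose level of 0.39 FPKM was 30.4% of the xHet mean but gave a difference of only -0.71 after the pseudocount of 1. In the other class Col23a1 and Col6a2 were past 1 unit, each at -1.04, and the pseudocount limits such differences because most genes of that class are at a few FPKM. As a ratio without a pseudocount, the 6 basement membrane genes lay within a narrow range, at 31.1% to 32.7% of the xHet mean. Fibrillar genes ranged from 27.6% for Col1a1 to 43.4% for Col5a2, and other genes from 33.2% for Col22a1 to 59.4% for Col14a1. Col9a1 and Col9a2, at 56.1% and 58.4%, and Col25a1 at 54.3%, were, like Col14a1, above 50% of the xHet mean.

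The values just inside and outside the limit of 1 log2 unit in embryo 3 were -1.04 for Col6a2 and Col23a1, and -0.86 for Col22a1. Of the 15 collagen genes below the limit of the test, Col5a3 stood at 0.06 in this embryo against a mean of 0.387 FPKM in xHet embryos and Col24a1 at 0.17 against 0.423 FPKM, levels too low to weigh.

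Transcript length moved with the difference of embryo 3 over the whole table. GENCODE M21 gave a longest transcript for 11549 of 12755 tested genes and 28 of 28 collagen genes, and these were split by its length into 5 groups of equal size. From the shortest to the longest group, the median difference of all genes in embryo 3 was 0.01, -0.15, -0.23, -0.35 and -0.48. Collagen genes were longer than most, with a median of 5794 bases against 3299, and richer in G and C, with 56.5% against 50.04%. In the longest group, with 2309 genes of 5206 bases or more, the 19 collagen genes had a median difference of -1.18.

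Split by GC content in the same way, 225 genes were in both the longest and the most GC-rich group. Among them the median in embryo 3 was -0.74 and 30.7% were at least 1 unit lower. The 8 collagen genes among them had a median of -1.54, and 6 were at least 1 unit lower. Of those 225 genes, 103 had a mean of at least 10 FPKM, with a median of -0.87 and 40.8% at least 1 unit lower. The 5 collagen genes among them had a median of -1.60, and 5 were at least 1 unit lower. In these groups the collagen median was below that of all genes of the group, which itself was below the median of the whole table. The longest group ran from 5206 to 123179 bases, so length was matched only coarsely. The part of length and GC content in the result was not tested beyond these medians.

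**Figure D4:**
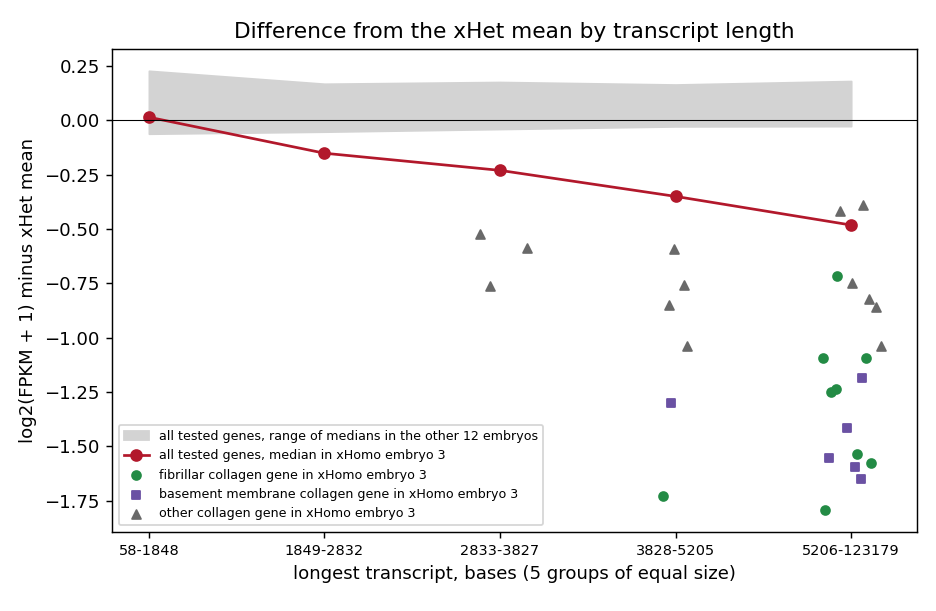
Difference of log2(FPKM + 1) from the xHet mean in xHomo embryo 3 by group of transcript length, as the median of all tested genes (red line) and as single collagen genes (green circles fibrillar, purple squares basement membrane, grey triangles other), with the range of the medians of the other 12 embryos in grey. The red line falls from 0.01 in the shortest to -0.48 in the longest group, and 26 of the 28 collagen genes lie below it in their group.

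The other embryos differed little. xHomo embryo 9 had 1 of 28 collagen genes at least 1 unit lower, Col15a1 at -1.07, where 1.53% of all genes were lower by that much, and no other embryo had any collagen gene past 1 unit in either direction. xHomo embryo 4 was the highest of the 13 embryos for 14 of 28 collagen genes, where 14.0% of all genes had it as the highest, and its median difference was 0.25 against 0.10 over all genes. After median-of-ratios scaling the collagen median of embryo 4 was 0.17. Over the 5 length groups, the median of all genes in embryo 4 was 0.01 in the shortest and 0.18 in the longest. That longest group held 19 of the 28 collagen genes. The part of length in the collagen values of embryo 4 was not tested. xHomo embryo 6 lay on the other side, with 21 of 28 collagen genes below the xHet mean and a median of -0.10 against 0.11 over all genes. The SD of log2(FPKM + 1) among xHomo embryos had a median of 0.38 over the collagen genes and 0.23 over all genes, and without embryo 3 both medians were 0.18.

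Chains that assemble into one protein were compared embryo by embryo. Of 14 pairs, 3 had a gene below 1 FPKM and were not computed. With all 10 xHomo embryos, 9 of the other 11 pairs fell into separate clusters, because embryo 3 lay far from the rest, and received no coefficient. The remaining pairs, Col9a1 with Col9a2 and Col9a1 with Col9a3, had r = 0.497 and 0.565, rho = -0.02 and 0.09, and adjusted permutation p = 0.148 for r in both. Without the 2 embryos farthest from the median of Col9a1 their r was -0.448 and -0.581, so both positive values rested on those embryos.

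In the 9 xHomo embryos without embryo 3 all 11 pairs could be computed, and 4 had an adjusted exact permutation p under 0.05 for r. Col4a1 and Col4a2 had r = 0.923 and rho = 0.867 (adjusted exact permutation p = 0.0108 and 0.0248), and r = 0.709 without the 2 embryos farthest from the median of Col4a1. For Col1a1 and Col1a2 these values were r = 0.857 and rho = 0.783 (adjusted exact permutation p = 0.0108 and 0.0474), and r = 0.672. The X-linked Col4a5 and Col4a6 had r = 0.817 and rho = 0.762 (adjusted exact permutation p = 0.0392 and 0.0476), and r = 0.767. Col6a1 and Col6a2 had r = 0.771 and rho = 0.900 (adjusted exact permutation p = 0.0392 and 0.0223), and r = 0.801. All embryo values in a pair come from the same library and share its scaling. How many other gene pairs would reach such values was not counted. For Col6a1, Col6a2 ranked 843 of 12717 genes by r, so an r of that size was not particular to this pair.

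Col5a1 and Col5a2 passed by rank only, with rho = 0.800 (adjusted exact permutation p = 0.0474) and r = 0.722 (adjusted exact permutation p = 0.0636). The cartilage pairs did not pass. Col2a1 had r = 0.587 with Col11a1 and 0.493 with Col9a1 (adjusted exact permutation p = 0.169 and 0.277). Col9a1 had r = -0.263 with Col9a2 and -0.291 with Col9a3, Col11a1 had -0.216 with Col11a2, and Col15a1 had -0.130 with Col18a1, with adjusted exact permutation p-values from 0.602 to 0.715.

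Ratios of partner levels, which need no correlation, were taken over all 13 embryos. Col4a1 to Col4a2 was between 1.53 and 1.71 in all 13 embryos, a coefficient of variation of 3.004%, and embryo 3 lay inside that range at 1.58 with the genes at 32.1% and 32.5% of their xHet means. Col4a5 to Col4a6 was between 1.68 and 2.22, with embryo 3 at 1.90. Col1a1 to Col1a2 was between 0.859 and 1.18 in 12 embryos and lowest in embryo 3, at 0.785. Col6a1 to Col6a2 was between 0.765 and 1.24, a coefficient of variation of 13.7%, with embryo 3 at 1.03. Col11a1 to Col11a2 ranged from 3.79 to 9.63 and Col15a1 to Col18a1 from 0.0216 to 0.0651.

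**Figure D5:**
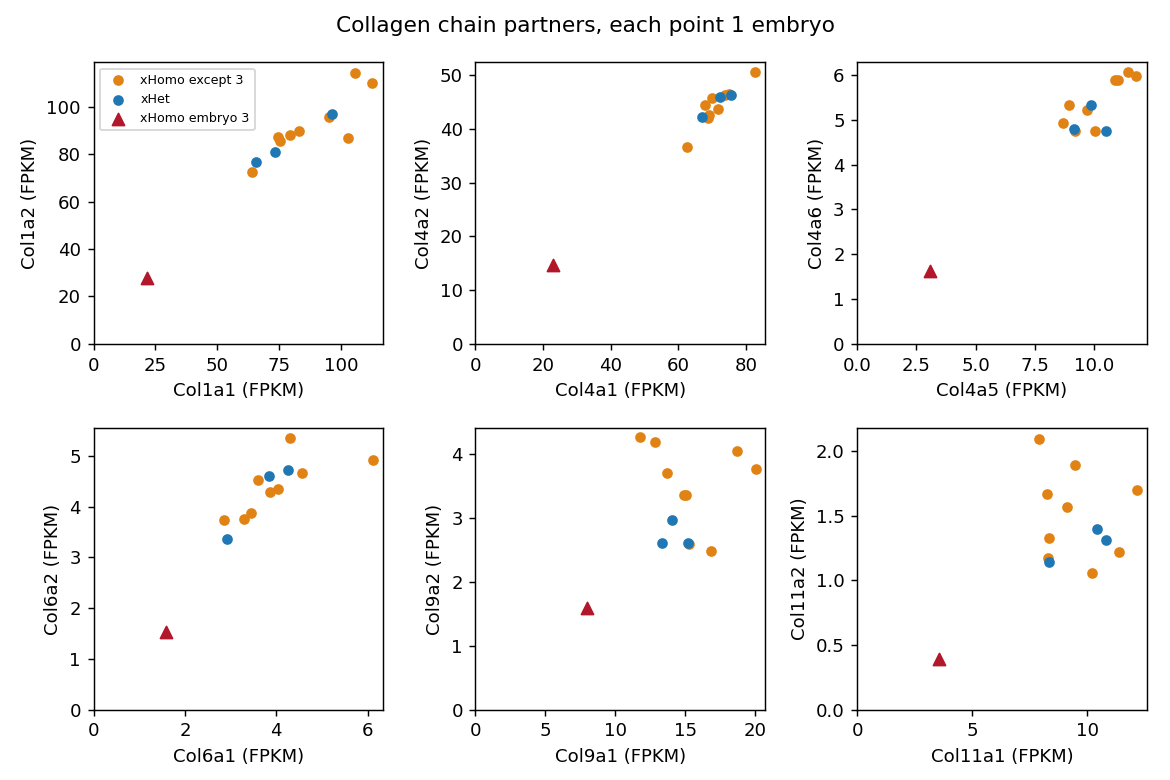
FPKM of 6 collagen chain pairs, with each of the 13 embryos as a point (blue xHet, orange xHomo, red triangle xHomo embryo 3). Points of Col4a1 with Col4a2, Col1a1 with Col1a2, Col4a5 with Col4a6 and Col6a1 with Col6a2 lie along a line in the 9 other xHomo embryos, while those of Col9a1 with Col9a2 and Col11a1 with Col11a2 do not.

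The genes whose levels were most like 4 collagen genes over the 10 xHomo embryos were found by Pearson r among 12723 other tested genes, as a description. The limit on gaps was not applied in this ranking. Its r values therefore include Col1a1 with Col1a2 and Col4a1 with Col4a2, which fell into separate clusters above and received no coefficient there. For Col1a1 they were Casq1 (r = 0.987), Col1a2 (0.980) and Flt4 (0.980), and for Col2a1 they were Pigs (0.997), Slc38a10 (0.996) and Man2a2 (0.995). For Col4a1 the highest were Ptk7 (0.998) and Col4a2 (0.996), and for Col6a1 they were Rgp1 (0.990), D430042O09Rik (0.986) and Ctbs (0.983). Embryo 3 weighs on all of these: the median r of Col4a1 with all other genes was 0.502 with it and 0.02 without it. Without embryo 3 Col4a2 ranked 5 of 12717 genes for Col4a1 and Col1a2 ranked 8 for Col1a1, while Col6a2 ranked 843 for Col6a1.

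Genes whose proteins make, carry, hold or remove collagen were read from lists set by function. The 7 lists held between 6 and 21 tested genes each. Between the groups 0 of these genes passed limma, beside 0.0235% of all genes. At an unadjusted limma p under 0.05, 1 gene, Sox9, was higher in xHomo embryos, where 7.63% of all genes were higher and 1.72% lower. The median log2 changes of the lists ran from -0.20 for fibril partners to 0.17 for regulators, beside 0.05 over all genes. Without embryo 3 these medians were -0.06 for fibril partners and 0.18 for regulators, beside 0.08 over all genes, and that of collagen breakdown was the lowest of the 7 at -0.09. The counts for embryo 3 that follow are read beside the 9.71% of all genes that were lower by that much and their median of -0.27. In xHomo embryo 3, 13 of 21 tested genes of collagen modification and folding were at least 1 log2 unit lower (median -1.17). They include Serpinh1, the collagen chaperone HSP47, at 267 FPKM against 567 ± 21.6 (SD, n = 3) in xHet embryos, and Mia3, which loads collagen for export, at 7.08 against 23.5 ± 1.04 FPKM. P4ha3, a prolyl hydroxylase subunit, stood at 0.60 against 1.08 ± 0.350 FPKM. In collagen processing and crosslinking 3 of 9 were lower by that much (median -0.68), among them Bmp1, which cleaves procollagen, at 9.53 against 21.4 ± 0.731 FPKM. Adamts3, which trims the other end of procollagen, stood at 1.34 against 3.10 ± 0.381 FPKM, and Lox, a crosslinking oxidase, at 0.47 against 0.793 ± 0.230 FPKM.

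Of the partners of basement membrane collagen, 11 of 13 were at least 1 unit lower in embryo 3, with a median of -1.48. The laminin chains Lamc1 and Lama4 stood at 10.5 against 36.3 ± 1.17 FPKM and at 2.62 against 7.41 ± 0.565 FPKM, and nidogen Nid2 at 11.7 against 38.0 ± 2.79 FPKM. Of the partners of fibrils 8 of 12 were lower by that much (median -1.21), with fibrillin Fbn2 at 12.6 against 42.5 ± 0.445 FPKM and tenascin Tnc at 2.67 against 7.78 ± 0.279 FPKM, while the proteoglycan Bgn stood at 9.32 against 17.4 ± 1.49 FPKM. Of collagen receptors 3 of 6 were lower (median -1.09), among them the integrin Itgb1 at 49.8 against 117 ± 1.48 FPKM. The receptors Ddr2 and Itga10 stood at 3.83 against 8.46 ± 0.537 FPKM and at 0.52 against 1.59 ± 0.0529 FPKM. Of collagen breakdown genes 4 of 9 were lower (median -0.86), among them the proteases Mmp2 at 20.9 against 48.9 ± 5.22 FPKM and Mmp14 at 21.4 against 57.3 ± 3.74 FPKM, and the inhibitor Timp1 stood at 6.88 against 10.1 ± 1.77 FPKM.

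Of the regulators of collagen genes, 0 of 13 were at least 1 unit lower in embryo 3, beside the 9.71% of all genes, and their median was -0.07, beside -0.27. Chosen after their values were seen, the lowest of them were the growth factor Tgfb2, at 3.01 against 6.53 ± 0.406 FPKM, with a difference of -0.91, and Tgfb1 and Ctgf, with differences of -0.74 and -0.70. Sox9, which drives Col2a1 in cartilage, stood at 12.1 FPKM in embryo 3 against 11.6 ± 0.556 FPKM in xHet embryos. Twist1, a mesenchymal factor, stood at 58.5 against 47.0 ± 3.90 FPKM, and Foxf2 at 4.32 against 2.98 ± 0.161 FPKM. Over the groups Sox9 had the smallest p of this list, with 15.7 ± 2.40 FPKM in xHomo embryos (n = 10), a log2 change of 0.39 (SE 0.13) and a limma adjusted p of 0.494, and it did not pass. Without embryo 3 its change was 0.43 (limma adjusted p = 0.191).

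Markers of the cells that make much collagen were set beside these values in embryo 3. The 6 endothelial markers were all at least 1 unit lower, with a median of -1.32, and 3 of 4 visceral endoderm markers were, with a summed level of 12.9 FPKM against 36.1 to 48.2 FPKM in xHet embryos. Of the mesenchyme markers 2 of 7 were lower by that much, Pdgfra and Pdgfrb. The mesenchyme list had a median of -0.16 and a sum of 139 FPKM against 148 to 168 FPKM. Of the parietal endoderm markers 2 of 8 were lower, among them Pdgfra, which is in both lists. The parietal endoderm list had a median of -0.55 and a sum of 121 against 145 to 156 FPKM. Of notochord and sclerotome markers 0 of 5 were lower, with a sum of 26.8 against 35.0 to 39.3 FPKM, and of primitive blood markers 0 of 5, with a sum of 9897 against 8365 to 8600 FPKM. Of the 3 tested markers of decidua and placenta 0 were lower by that much, with a list sum of 7.03 against 10.8 to 15.0 FPKM. The part of any of these cell types in the collagen values of embryo 3 was not tested.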

How the data were processed

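RNA from 13 embryo samples of embryonic day 9.5 (3 xHet, 10 xHomo, by the genotype label) was prepared as directional poly(A) libraries, per the labels' protocols. The authors deposited 1 table of FPKM per gene and sample, on mm9; the submitters' processing notes name bcl2fastq 1.8.2, TopHat and Cufflinks, while their other settings are not stated (not given in the sources used here). The unit is normalised to mapped fragments and transcript length, so counts and depth are unknown, values of low genes are the least certain, and a few abundant RNAs or unequal RNA quality can shift a library. A value of 0 may also come from an estimate that failed. Starts in the table are counted from 0, so 1 was added.

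Genes with a mean of at least 1 FPKM were tested with limma 3.58.1 under R 4.3.3, by a two-sided test without covariates from lmFit and trended eBayes, on log2(FPKM + 1), with Benjamini-Hochberg adjustment over all 12755 genes at 0.05. Changes are on that scale and understate those of low genes. Differences of single embryos were taken from the xHet mean (for a xHet embryo, from the mean of the other xHet embryos). Correlations of chain pairs used exact permutation over 9 embryos and 100000 resamples over 10, adjusted over the pairs. For a pair, none was given where the widest gap between values exceeded 0.5 of the range of a gene. The ranking of nearest genes did not apply this limit. Python 3.11.15 with pandas 2.3.3, numpy 2.4.6, scipy 1.17.1 and matplotlib 3.10.9 was used. Scripts for limma, correlations and departures were tested on simulated data.

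Collagen classes were set from textbook knowledge. Genes named were, per class, the 4 highest, the 3 with the smallest limma p, the 3 with the largest SD among xHomo embryos and all chain partners; per gene list, the 3 with the smallest p; and the 3 nearest genes of Col1a1, Col2a1, Col4a1 and Col6a1. 1 gene under this rule is not reported here. Others, and xHomo embryo 3, were singled out after values were seen. The members and lists were chosen with earlier results of these data known. The alternatives tried were other pseudocounts, filters, scalings, limma models, Xist as a covariate, the replicate number as a block and leaving out each embryo; medians by length and GC and the nearest genes without embryo 3 were added after seeing the data.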

Additional observations from a re-analysis of the deposited data

Results flagged for a closer look

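In 19 of 28 tested collagen genes, 1 embryo lay so far below the other 9 xHomo embryos that its gap exceeded Dixon's 95% limit for 10 samples (0.466 of the range, on log2(FPKM + 1)), and in all 19 it was xHomo embryo 3. Of all tested genes, 2449 of 12755 (19.2%) had that embryo as a lone lowest value, and chance gives about 1 in 20 groups a lone embryo at either end.

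The fibrillar genes among the 19 were Col1a1 at 21.7 FPKM in embryo 3, Col1a2 at 27.6, Col2a1 at 31.5, Col3a1 at 53.7, Col5a1 at 6.88, Col11a1 at 3.54, Col11a2 at 0.39 and Col27a1 at 1.32 FPKM. The basement membrane genes were Col4a1 at 23.0 FPKM, Col4a2 at 14.6, Col4a5 at 3.07, Col4a6 at 1.62 and Col18a1 at 36.6 FPKM. The other collagen genes were Col6a2 at 1.53 FPKM, Col9a3 at 0.73, Col12a1 at 0.64, Col16a1 at 0.74, Col22a1 at 0.68 and Col23a1 at 4.60 FPKM.

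The class sums of embryo 3 were also alone at the low end, with 154 FPKM for fibrillar, 81.0 FPKM for basement membrane and 24.6 FPKM for other collagen genes. The 9 collagen genes whose lowest embryo was not alone include Col5a2, Col15a1 and Col9a1. The library of embryo 3 had the lowest summed FPKM, 500126, and a falling median with transcript length, as given in the report; their part in these values was not tested.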

How the results depend on the processing

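The count of collagen genes passing limma was 0 in each alternative except array weights, which gave 2: Col15a1, with a log2 change of -0.51 (limma adjusted p = 0.00613), and Col9a2, with 0.27 (limma adjusted p = 0.0468). With the replicate number as a block the count stayed at 0, Col9a2 turned to -0.11 and Col16a1 to -0.18. For the numbers 1 to 3, correlations of deviations of same-numbered embryos were -0.07, -0.04 and -0.04. With 3 xHet embryos these values cannot show whether same-numbered embryos shared a litter or batch, which the labels do not state. In the main fit 3 of all 12755 genes passed limma. The set of genes tested changed with the filter and with leaving out an embryo, to 12798 genes without xHomo embryo 3. Passing genes numbered 11 with no filter and 1 at a mean of at least 5 FPKM. Rescaling to equal sums gave 5, quantile normalization 5, array weights 2779, Xist as a covariate 1 and the replicate block 1. The exact permutation test, which allows no unadjusted p below 0.0035, gave 0. Leaving out 1 embryo gave 1 to 11, with 11 without xHomo embryo 3. The collagen values 1 log2 unit or more away from the mean of the xHet embryos numbered 17 over all xHomo embryos. They became 25 with a pseudocount of 0.1, 8 with a pseudocount of 5 and 15 with rescaling to equal sums. Median-of-ratios scaling gave 10 and a limit of log2 of 3 gave 4. With 1 embryo left out there were 1 to 17, and 1 without xHomo embryo 3. The 0 chain pairs passing in 10 xHomo embryos became 0 to 4 when leaving out 1 embryo, with 4 without embryo 3. The cause of these shifts was not tested, except that array weights give less weight to deviating libraries and that embryo 3 puts 9 pairs into separate clusters. Depth is unknown and sets no limit that can be given here; 15 collagen genes below 1 FPKM were described only by level.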
